A study of Homo sapiens with 16 samples.

Results

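The 9 epithelial lineage transcription factors ELF3, ELF5, EHF, GATA3, KLF4, KLF5, SOX9, TFAP2A and TFAP2C were followed in MCF10HER2 cells during treatment with a HER2 kinase inhibitor. They were chosen by name, as the probes whose gene symbol in the deposited table was one of these 9 of 18190 symbols, and 11 probes matched. ELF5 and TFAP2A had more than 1 probe, and for them the probe with the highest mean signal was used. MCF10HER2 cells are MCF10A cells, a nontransformed human breast epithelial line, that stably over express HER2 (gene symbol ERBB2), and they grow in serum-free, insulin-free medium that holds EGF and hydrocortisone. The series has 16 Illumina Ref-8 v2 arrays of parallel cultures, 1 untreated at 0 h and 15 treated with 1 µM CP724,714, which blocks the kinase activity of HER2, with 1 array every 3 h up to 45 h. No time point has a replicate, so the residual spread around a fitted time curve, or within a set of 4 neighbouring arrays, stands in for replicate error, and the number of arrays limits the precision. Fresh medium was given together with the inhibitor and no vehicle culture was analysed here, so the inhibitor and the medium change cannot be told apart. Time in culture and time since feeding, with any change of cell density, also rose with hours of treatment and cannot be told apart from it.

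Epithelial cells hold their identity through a small number of DNA-binding proteins. ELF3, ELF5 and EHF form the epithelium-specific branch of the ETS family. ELF5 and GATA3 are known for their part in the luminal lineage of the mammary gland, SOX9 for a part in its stem and progenitor cells, and KLF4 and KLF5, which both bind GC-rich sequence, for differentiation and for proliferation of stratified and glandular epithelia. TFAP2A and TFAP2C encode AP-2 alpha and AP-2 gamma, which bind a GC-rich palindrome and have been tied to keratin genes and to ERBB2 itself. Keratins are the intermediate filament proteins of epithelia, and the set a cell makes (basal, simple, suprabasal, or the KRT6 and KRT16 pair of activated keratinocytes) is the usual readout of its state.

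The late rise of ELF3 and the early fall of KLF4 carry the findings below, and the promoter windows of these genes are shown because they hold different motifs. Each runs from 250 bases before to 50 bases after the gene start, 5′ to 3′ on the strand of the gene, in RefSeq's GRCh38.p14 annotation. The ELF3 window lies on the plus strand at chr1:202010337-202010636 and the KLF4 window on the minus strand at chr9:107489720-107490019. Capitals mark the TATA box letters TATAAA in ELF3, and in KLF4 the GC box letters GGGCGG, or CCGCCC where the match is on the other strand, and the AP-2 palindrome GCCNNNGGC.
ELF3: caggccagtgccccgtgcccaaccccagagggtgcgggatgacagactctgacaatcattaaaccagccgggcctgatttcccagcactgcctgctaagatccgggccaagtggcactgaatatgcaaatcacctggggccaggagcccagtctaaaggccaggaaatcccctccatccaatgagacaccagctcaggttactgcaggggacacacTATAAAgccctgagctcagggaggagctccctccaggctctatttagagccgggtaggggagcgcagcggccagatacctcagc
KLF4: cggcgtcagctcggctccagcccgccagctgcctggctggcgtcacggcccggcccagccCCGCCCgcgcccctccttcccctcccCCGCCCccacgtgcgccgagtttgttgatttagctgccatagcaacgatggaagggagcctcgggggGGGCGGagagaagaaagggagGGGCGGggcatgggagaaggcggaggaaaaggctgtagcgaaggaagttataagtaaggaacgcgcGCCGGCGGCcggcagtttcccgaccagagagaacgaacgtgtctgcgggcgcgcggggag
Both strands were searched for the 3 motifs, and none of the matches in these windows overlap each other. ELF3 had 1 TATA box, starting 34 bases before the start, no GC box and no AP-2 palindrome. KLF4 had 4 GC boxes, 190, 164, 97 and 76 bases before the start, 1 AP-2 palindrome 10 bases before it and no TATA box. Of 35116 promoters of this length, 11.5% held the TATA box letters, 45.0% the GC box letters and 23.2% the palindrome, so holding any of these motifs at least once is not rare. How many held 4 GC boxes, or a TATA box at a given position, was not counted. In the windows of the other members, KLF5 and TFAP2A each held the TATA box letters once, 194 and 30 bases before the start, and GATA3 had 1 palindrome. ELF5 and EHF had no match, but the windows used for ELF5 and EHF lie 2070 and 3164 bases from the annotated gene start, at another start site of the gene. SOX9 and TFAP2C had no entry. A match of letters is a description and not a binding site.

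The cells carried epithelial markers. All 6 epithelial markers passed the filter on detection, with EPCAM (TACSTD1 in the table), KRT5, KRT8, KRT18 and DSP detected on all 16 arrays and CDH1 on 15. The CDH1 probe was near background, with log2 values from 7.97 at 18 h to 8.12 at 45 h. The mesenchymal genes COL1A1, COL1A2 and PDGFRB were detected on 0 arrays and COL3A1 on 2, the leukocyte genes CD3E on 1 and PTPRC on 7, and of the endothelial genes CDH5 on 0, KDR on 15 and PECAM1 on 16. Of the luminal markers, KRT8, KRT18, KRT19 and FOXA1 were detected on all arrays and the receptors ESR1 and PGR on none. Of the basal markers, KRT5 and KRT17 were detected on all arrays, TP63 (TP73L in the table) on 14 and KRT14 on 1. The ERBB2 probe was near background and detected on 7 arrays, with log2 values from 7.93 at 18 h to 8.01 at 39 h. No MCF10A array was analysed here, so over expression of HER2 against the parent line could not be judged with this probe. Where this probe lies on the transcript is not given in the sources used here. Between 10363 and 11436 of 20589 probes were detected on an array. The background signal was 135.9 to 148.9 on the 8 arrays from 0 to 21 h and 164.5 to 173.9 on the 8 arrays from 24 to 45 h, which splits the course at 24 h, and the 9 h and 18 h arrays had a low upper quartile signal (397.3 to 418.4, against 553.2 to 803.7 on the others).

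Of the 9 factors, 8 were detected on all 16 arrays, where detected means a deposited detection p under 0.05 against the negative control probes. The exception was ELF5, detected on 7 arrays (9, 21, 24, 30, 33, 39 and 42 h), and its second probe was detected on 8. All 9 passed the filter of 3 arrays. Values below are log2 normalized signals from 1 probe per gene, and a difference of 1 is a doubling. Since probes differ in brightness, the level of 1 gene is compared only with its own level on other arrays.

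A smooth curve in time was fitted to each of 12321 probes in limma, and 4 of the 9 factors changed over the course after Benjamini-Hochberg adjustment. These were ELF3 (adjusted p = 6.59e-05), KLF4 (9.4e-05), SOX9 (0.00135) and KLF5 (0.00569). Across all probes tested 41.9% passed the same test, so 4 of 9 is close to the background and no result about the group. What set the factors apart from one another was the shape of their course. KLF4 and SOX9 were lower on every treated array than at 0 h, ELF3 was lower first and then rose late to above its 0 h value, and KLF5 was highest at the beginning and at the end.

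**Figure D1:**
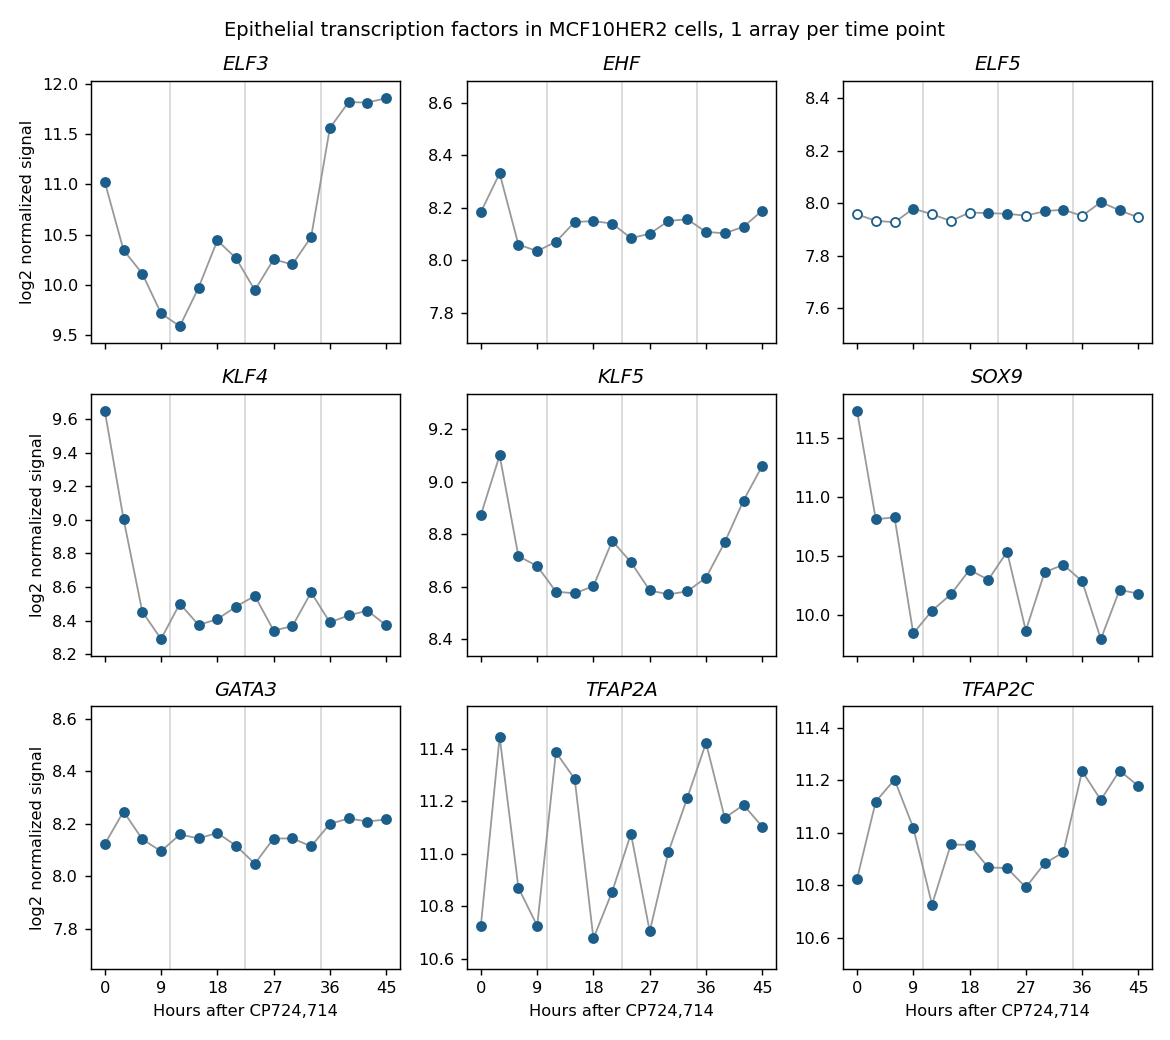
Log2 normalized signal of the 9 factors (vertical axes, each panel on its own range) against hours after CP724,714 (horizontal axis), with 1 point per array, filled where the probe was detected and open where it was not. Grey lines divide the 4 sets of arrays used in the comparisons. ELF3 steps up between 33 and 36 h, KLF4 and SOX9 drop from 0 to 9 h and stay low, and ELF5 holds near 7.96 throughout.

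ELF3, an ETS factor of simple and differentiating epithelia, went through a trough and a late rise. It fell from 11.02 at 0 h through 10.35 at 3 h, 10.11 at 6 h and 9.72 at 9 h to its lowest value of 9.59 at 12 h. It then stood at 9.98, 10.44 and 10.27 at 15, 18 and 21 h, and at 9.95, 10.26, 10.20 and 10.48 from 24 to 33 h. At 36 h it was 11.56, followed by 11.82, 11.81 and 11.86. The last 4 arrays therefore lay above every earlier one, the untreated array included, and did not overlap with any of the other sets.

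By sets of 4 arrays the ELF3 mean was 10.30 ± 0.55 (SD, n = 4) for 0 to 9 h, 10.07 ± 0.37 for 12 to 21 h, 10.22 ± 0.22 for 24 to 33 h and 11.76 ± 0.14 for 36 to 45 h. The order from the highest was thus 36 to 45 h, 0 to 9 h, 24 to 33 h and 12 to 21 h, and the lower 3 did not differ beyond their spread. The last step was +1.54 (SE 0.22), a 2.91-fold rise with a limma adjusted p of 0.000265. Most of it came between neighbouring arrays at 33 and 36 h, where ELF3 rose 2.12-fold. The step stayed between 1.31 and 1.62 and past the threshold under all 24 alternatives tried. The array background was alike on both sides of this step, as all 8 arrays from 24 h on belong to the group with the higher background. Other differences between cultures, harvests or arrays were not tested.

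At its lowest, at 12 h, ELF3 was 2.70-fold below the untreated culture, and at 45 h it was 1.78-fold above it. The highest array was 4.81-fold above the lowest, against a median of 1.34-fold over all probes tested. A straight line gave ELF3 a change of +1.62 (SE 0.43) over 45 h with a limma adjusted p of 0.0103, and it was the 1 factor past the linear threshold, against 12.9% of all probes higher and 11.5% lower. The line describes the course poorly. From 0 to 21 h alone its slope was -0.45 (SE 0.41, adjusted p = 0.489), and with the 4 sets as a block it was +0.29 (adjusted p = 0.943).

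KLF4, a zinc finger factor of epithelial differentiation, fell from 9.65 at 0 h to 9.01 at 3 h, 8.45 at 6 h and 8.29 at 9 h, its lowest value. From 12 h on it stayed between 8.34 and 8.57. All 15 treated arrays were below the untreated one, 1.56-fold at 3 h, 2.57-fold at 9 h and 2.43-fold at 45 h, and no array returned to within a fold of 2 of the start after 3 h. After 9 h no further movement was seen, with set means of 8.44 ± 0.06 (SD, n = 4), 8.46 ± 0.12 and 8.41 ± 0.04. From 6 h on the probe was weak, and the processing shrinks the changes of weak probes, so these folds and any later movement are compressed.

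SOX9, an SRY-related factor of progenitor cells, took the same direction. It stood at 11.73 at 0 h and 10.81 at 3 h, remained at 10.82 on the 6 h array and reached 9.84 by 9 h, so that nearly all of the drop came in the intervals from 0 to 3 h and from 6 to 9 h. It then varied between 9.79 and 10.53 until 45 h, with low points of 9.86 at 27 h and 9.79 at 39 h. All 15 treated arrays were again below the untreated one, by 1.87-fold at the least, at 6 h, and by 3.82-fold at the most, at 39 h. The 45 h value was 2.93-fold below 0 h. Around its fitted curve SOX9 scattered by a residual SD of 0.27, more than the 0.15 of KLF4 and the median of 0.08 over all probes.

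The calls of KLF4 and SOX9 depended on the single untreated array. Without it the limma adjusted p of the curve became 0.0554 for KLF4 and 0.148 for SOX9, and ELF3 and KLF5 alone still passed. Within the first 4 arrays, in a trend added after the data were seen, the slope over 9 h was -1.39 (SE 0.27) for KLF4, -1.69 (SE 0.35) for SOX9 and -1.24 (SE 0.30) for ELF3. None of these passed (adjusted p 0.0813, 0.0839 and 0.0959 in limma), in a test on 4 arrays that called 0.0325% of all probes higher and as many lower. The same trend within the later sets called none of the 9 factors either, the nearest being ELF3 from 12 to 21 h at +0.75 (adjusted p = 0.0511), where 0.398% of all probes were called higher and 0.406% lower, against 0.268% higher and 0.0243% lower from 24 to 33 h. The fall inside the first set also widens its spread, so the step from 0 to 9 h to 12 to 21 h was -0.41 (SE 0.19, adjusted p = 0.106) for KLF4 and -0.58 (SE 0.27, adjusted p = 0.0984) for SOX9. In that step 0 of the 9 factors passed in limma, against 17.5% of all probes higher and 18.0% lower. Without the dim 9 h array, which is also the lowest of its set for both genes, the step became -0.59 (adjusted p = 0.00851) for KLF4 and -0.90 (adjusted p = 0.00158) for SOX9.

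KLF5, a relative of KLF4 that is tied to proliferation of basal epithelial cells, had a shallow U-shaped course. It was 8.87 at 0 h and highest at 3 h, with 9.10. Between 12 and 36 h it lay from 8.57 to 8.77, and it then came back through 8.77 at 39 h and 8.93 at 42 h to 9.06 at 45 h. The highest array was 1.44-fold above the lowest. The rise at the end did not pass as a step (+0.24, SE 0.10, limma adjusted p = 0.135), although with array weights it did (+0.26, adjusted p = 0.0129), and with the 4 sets as a block the curve itself had an adjusted p of 0.158.

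TFAP2C, the AP-2 gamma gene, stayed between 10.73 at 12 h and 11.24 at 42 h. Its set means were 11.04 ± 0.16 (SD, n = 4), 10.88 ± 0.11, 10.87 ± 0.06 and 11.19 ± 0.05, and the last set lay above the 24 to 33 h set without overlap, whose highest value was 10.92 against a lowest of 11.12. This last step was +0.33 (SE 0.09), a 1.25-fold rise with a limma adjusted p of 0.0291. The values at 3 and 6 h, 11.12 and 11.20, were as high as those at the end.

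GATA3, the zinc finger factor of luminal cells, ranged from 8.05 at 24 h to 8.25 at 3 h. Its mean was 8.11 ± 0.05 (SD, n = 4) from 24 to 33 h and 8.21 ± 0.01 from 36 to 45 h, a step of +0.10 (SE 0.03), 1.07-fold, with a limma adjusted p of 0.0443. The size of this step depended on the background correction, and it was +0.25 (adjusted p = 0.0478) without any and +0.33 (adjusted p = 0.0491) with normexp on the signals alone. With ELF3 and TFAP2C it made 3 of 9 factors higher in the last step, against 6.40% of all probes higher and 5.84% lower, and none was lower. The calls of TFAP2C and GATA3 are fragile. That of TFAP2C was lost when any 1 of the arrays at 24, 27, 30, 33, 36, 42 or 45 h was left out (adjusted p up to 0.0817) and with median scaling (+0.32, adjusted p = 0.277), and that of GATA3 when any 1 of the 12 arrays from 12 to 45 h was (adjusted p up to 0.161), while both steps stayed positive throughout. The step of ELF3, 2.91-fold, was thus the one of the 3 that stayed past the threshold without any single array.

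TFAP2A scattered between neighbouring arrays. On the first 4 arrays it was 10.73, 11.45, 10.87 and 10.72, then 11.39 and 11.28 at 12 and 15 h and 10.68 at 18 h. From 21 to 33 h it ran through 10.86, 11.08, 10.70, 11.01 and 11.21, and it ended at 11.42, 11.14, 11.19 and 11.10. The 4 lowest arrays were those at 18, 27, 9 and 0 h. The residual SD was 0.27 and neither the curve (limma adjusted p = 0.461) nor any step passed. The second TFAP2A probe, detected on 7 arrays, varied 1.06-fold in all.

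EHF and ELF5, the other epithelial ETS factors, did not pass the curve or any step in the fits above. With array weights the curve of EHF did pass (adjusted p = 0.0486). EHF lay between 8.04 at 9 h and 8.33 at 3 h with an adjusted p of 0.284 for the curve in limma, and its last step was +0.01 (SE 0.05). ELF5 had a curve at an adjusted p of 0.585, and its highest array was 1.05-fold above its lowest.

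**Figure D2:**
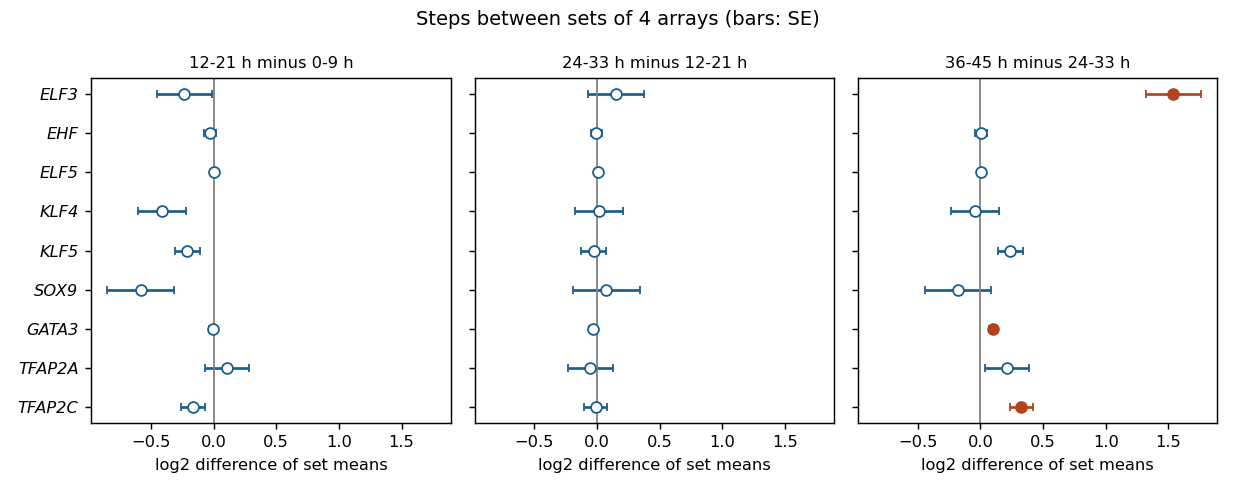
Difference of set means on the log2 scale (horizontal axis) for the 9 factors in each of the 3 steps between neighbouring sets of 4 arrays, with bars for the SE from limma and filled red points where the adjusted p is under 0.05. The step into 36 to 45 h holds the 3 filled points, ELF3 at 1.54, TFAP2C at 0.33 and GATA3 at 0.10, and the step into 24 to 33 h has every factor close to 0.

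In the step from 12 to 21 h into 24 to 33 h none of the 9 factors passed in limma, and the differences ran from -0.05 (TFAP2A) to +0.15 (ELF3). Few probes of any kind were called in this step, 0.0568% higher and 0.114% lower, although the array background changes across it.

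The study used a threshold of 1.7-fold without an error term. With 0 h taken here as the baseline, 3 of the 9 factors passed it on at least 1 array, where 19.5% of all probes did. ELF3 passed it in both directions, KLF4 and SOX9 downward, against 10.9% of all probes upward and 9.47% downward.

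Among the genes detected on all arrays with a fitted range of 1 or more, 1185 probes were compared with each factor that passed the curve fit, as a description over 16 arrays that share their time order. Nearest to ELF3 were CITED2 (r = 0.970), which encodes a transcriptional coregulator, SLITL2 (0.966), now VASN, and C14orf147 (0.964), now SPTSSA, a subunit of serine palmitoyltransferase. Nearest to KLF4 were TNFAIP3 (0.972), the NF-kappaB inhibitor A20, ENC1 (0.955) and GPT2 (0.951). The gene nearest to SOX9 was KLF4 itself (0.867), before the glutamine transporter SLC1A5 (0.861) and COBLL1 (0.857). For KLF5 the nearest were IFRD1 (0.858), UFM1 (0.856) and RNF103 (0.851).

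The keratins spanned a wide range of change, with the highest array 15.1-fold above the lowest for KRT17 and 14.0-fold for KRT6B. The table has 31 keratin symbols, of which 17 were tested, 13 were detected on all 16 arrays and 12 on none. Of the 17, 15 passed the curve fit, against 41.9% of all probes tested. By the straight line 4 were higher and 7 lower, against 12.9% and 11.5% of all probes. KRT17, a basal keratin, rose by 2.90 (SE 0.32, limma adjusted p = 5.33e-06) over 45 h, from 11.51 at 0 h to 15.43, and the simple keratins KRT7 and KRT8 rose by 1.05 and 0.66. The basal keratins went both ways, as KRT15 also rose, by 0.51, and KRT5 changed by -0.47 (limma adjusted p = 0.00696). The activation keratin KRT6B changed by -3.60 (SE 0.36, limma adjusted p = 1.84e-06), with values of 13.59 at 0 h and 10.35 at 45 h. The suprabasal KRT10 changed by -0.81. The probes named KRT6A, KRT6C and KRT6E, which changed by -2.09, -1.87 and -0.91, stand for near-identical genes whose names have been exchanged, so which gene each reports is uncertain.

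The times at which factors and keratins moved can be set side by side. While KLF4 and SOX9 dropped, from 0 to 9 h, KRT17 went from 11.51 through 12.94 and 13.51 to 13.83, and KRT6B went from 13.59 to 14.02. The simple keratins KRT8 and KRT7 fell in this time. KRT8 went from 13.90 to 12.91 at 3 h and was 13.38 at 9 h, and KRT7 went from 12.88 to 12.33 at 6 h and was 12.59 at 9 h. The drop of KRT6B to 12.30 and of KRT10 to 12.39 (set means) came at 12 h, when KLF4 and SOX9 were already low and ELF3 was at its lowest. In that step all 5 of the activation keratins were lower, by 0.51 to 1.45 on the log2 scale, against 18.0% of all probes, and KRT7 rose by 0.49. None of the factors passed in it.

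The late rise of ELF3 coincided with a second change of keratins. In the step into 36 to 45 h 6.40% of all probes were higher and 5.84% lower, so many other genes shared this timing. Between the sets of 24 to 33 h and 36 to 45 h, KRT6B changed by -1.72 (SE 0.18, limma adjusted p = 1.21e-05), KRT6A by -0.65, KRT6C by -0.71 and KRT6E by -0.51. The basal KRT5 changed by -0.28 (adjusted p = 0.0101), while KRT16 was at +0.15 (adjusted p = 0.253). KRT17 was at +0.97 (SE 0.32, adjusted p = 0.0525), which did not pass. The simple keratin KRT19, singled out after its values were seen, rose by 0.30 (SE 0.04, adjusted p = 0.000259), from 8.09 ± 0.03 to 8.39 ± 0.07 (SD, n = 4). ELF3 and KRT19 had like shapes, both below their 0 h value until 33 h and both at or above it from 36 h on, except that KRT19 was 8.31 at both 0 and 36 h. This likeness was not particular to ELF3. From 0 to 21 h KRT19 had r = 0.81 with SOX9, 0.75 with KLF4 and 0.74 with ELF3, none past the adjusted threshold, and GATA3 shared the late step (+0.10). The KRT19 probe was weak, between 8.06 and 8.46 on all arrays.

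**Figure D3:**
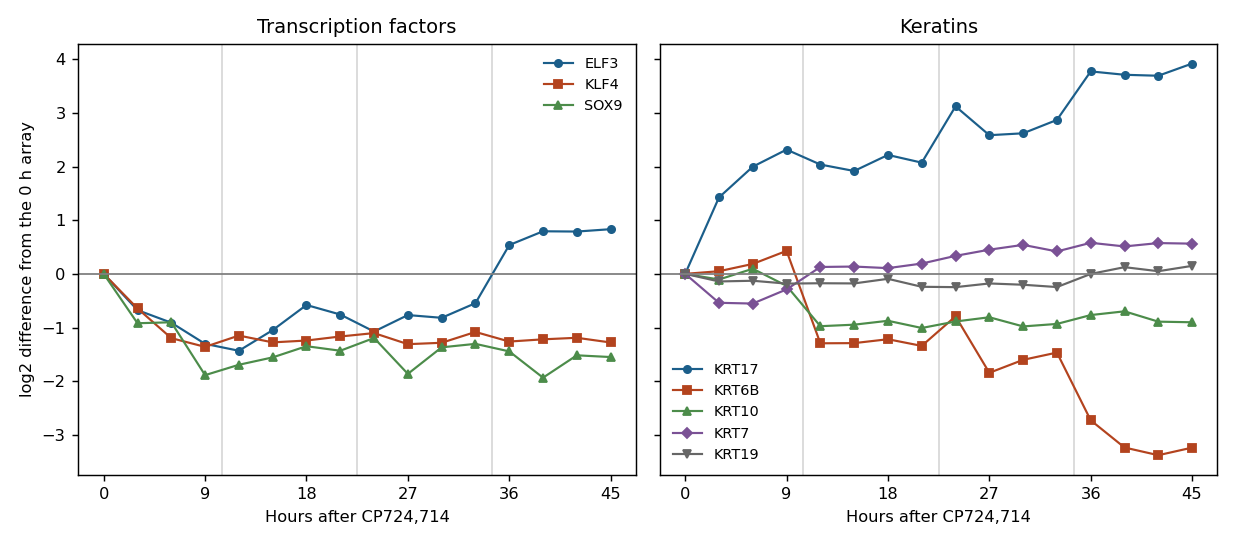
Log2 difference from the 0 h array (vertical axis, shared) against hours after CP724,714 for ELF3, KLF4 and SOX9 (left) and for 5 keratins (right), 1 array per point, with grey lines between the sets of arrays. KLF4 and SOX9 drop while KRT17 climbs in the first 9 h, KRT6B and KRT10 drop at 12 h, and ELF3 and KRT17 step up at 36 h as KRT6B falls again.

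Within the 8 arrays from 0 to 21 h, 117 pairs of a factor and a keratin were correlated with an exact permutation test, and 0 passed after adjustment, with 10 at an unadjusted p under 0.05. The strongest was KLF4 with KRT17, with r = -0.978 (exact p = 0.002629, adjusted 0.2999) and rho = -0.69 (exact p = 0.06939). Without the 2 arrays farthest from the median of KLF4, r was -0.54, so the relation rests on those arrays. From 24 to 45 h 15 pairs passed and 33 had an unadjusted p under 0.05, and all 15 were pairs of ELF3, GATA3 or TFAP2C. These calls are by Pearson's r, and by Spearman's rho 0 pairs passed in this range, with a lowest adjusted exact p of 0.06674. There the arrays form 2 separate clusters, with ELF3 from 9.95 to 10.48 up to 33 h and from 11.56 to 11.86 after it. An r over both clusters largely reads the step between them, so its values are not given. ELF3, GATA3 and TFAP2C are also the factors called in that step. The 15 calls therefore repeat the step and are no separate evidence of a relation to keratins. The 4 arrays of a cluster are too few to test the relation within it. Neighbouring time points are not independent, and no pair passed in both ranges.

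**Figure D4:**
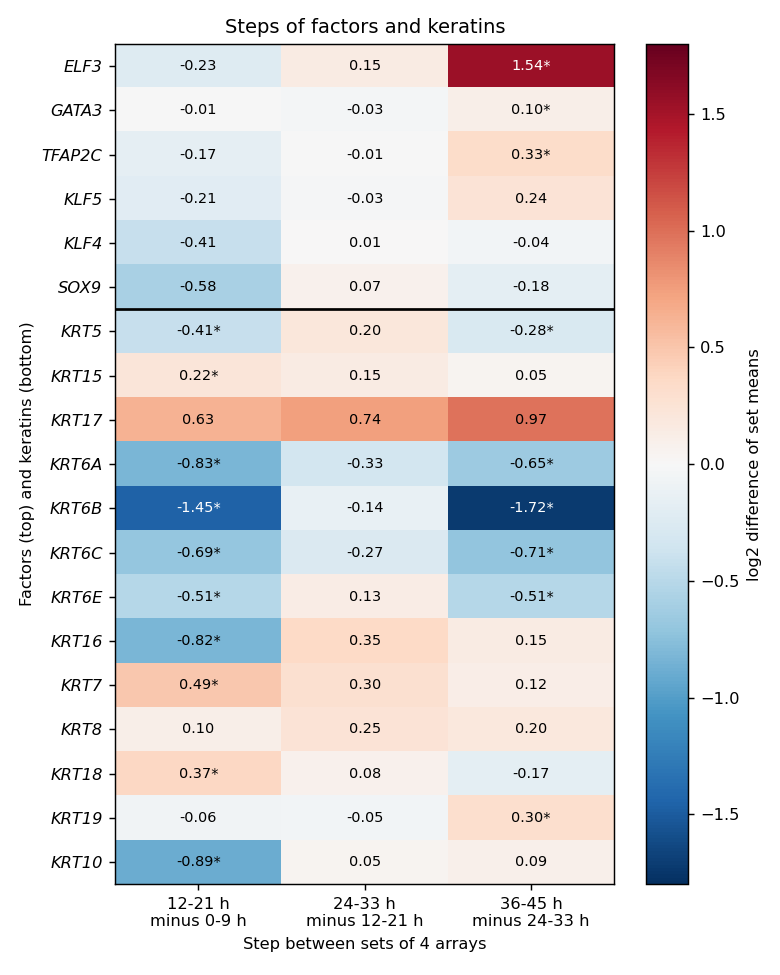
Differences of set means on the log2 scale (colour and printed value) for 6 factors above the black line and 13 keratins below it, in the 3 steps between sets of 4 arrays, with an asterisk where the limma adjusted p is under 0.05. ELF3 (1.54) and KRT6B (-1.72) hold the strongest colours in the last step, and in the first step the asterisks are all on keratins.

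The relatives of the 9 factors were read from a list of 32 paralogs, of which 27 were tested and 11 (40.7%) passed the curve fit in limma, close to the 41.9% of all probes. By the straight line 2 were higher and 4 lower, against 12.9% and 11.5% of all probes. The list had a median change of -0.05, against -0.002 over all probes. ETS1 changed by -0.74 (SE 0.18, adjusted p = 0.00619) and the MAPK-responsive ETV5 by -0.61 (SE 0.15, adjusted p = 0.00464). ELF2 rose by 0.45 (SE 0.14, adjusted p = 0.0278), with +0.35 in the last step (adjusted p = 0.0358), and the immediate early factor KLF10 changed by -0.14. TFAP2B and TFAP2E, the AP-2 paralogs on the list, were not detected on any array. SOX4, a relative of SOX9 singled out after its values were seen, had a step of -0.71 (adjusted p = 0.0017) into 12 to 21 h and one of +0.79 (SE 0.15, adjusted p = 0.00282) into 36 to 45 h, with its highest value at 0 h and its lowest at 12 h.

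Of 40 other regulators of epithelial cells, 38 are in the table and 28 were tested. Of these 19 passed the curve fit, against 41.9% of all probes tested. By the straight line 4 were higher and 8 lower, against 12.9% and 11.5% of all probes, with a median change of -0.05. FOXQ1, a forkhead factor, rose by 2.0 (SE 0.28, limma adjusted p = 5.22e-05), with its highest array 5.82-fold above its lowest, and MYB rose by 0.73. XBP1, a factor of secretory cells, changed by -1.73 (SE 0.42, adjusted p = 0.00502), SNAI2, a basal factor that represses CDH1, by -1.68 (SE 0.24, adjusted p = 8.44e-05), LMO4 by -1.18 and PRDM1 by -0.90. For SNAI2 and PRDM1 the step into 12 to 21 h, -1.10 and -0.80, held most of this.

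Of 6 textbook targets of AP-2 factors, 4 were tested and 2 passed the curve fit, against 41.9% of all probes. Both were lower by the straight line, against 11.5% of all probes. These were KRT5 and CDKN1A, the cell cycle inhibitor p21, which changed by -1.54 (SE 0.26, limma adjusted p = 0.000302). The CDKN1A probe was bright on all arrays but its detection p was above 0.05 on 2 of them. CDH1 and ERBB2 did not pass, and ESR1 and KRT14 were not tested. The linear changes of TFAP2A and TFAP2C themselves were +0.20 (SE 0.21) and +0.19 (SE 0.15), and neither passed. Across the alternatives these ran from -1.12 to 0.63 and from -0.13 to 0.60. A relation of the AP-2 factors to these targets was not tested.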

How the data were processed

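Total RNA of 16 parallel cultures was labelled as biotinylated cRNA and hybridised to Illumina Ref-8 v2 beadchips by the authors, whose methods name quantile normalization for their own comparison. The authors deposited, for each of 20589 probes and each array, a signal intensity before normalization and a detection p-value against negative control probes. Here intensities were corrected and quantile-normalized with neqc (limma 3.58.1, R 4.3.3, offset 16) and taken to the log2 scale, where the offset shrinks the changes of weak probes. The 12321 probes that were detected (p under 0.05) on at least 3 arrays were tested, and 40.2% were left out. Each probe was fitted in limma with a mean-variance trend by a natural cubic spline in hours (4 degrees of freedom, moderated F-test), by a straight line given as the log2 change over 45 h, and by the means of 4 sets of 4 arrays (0 to 9, 12 to 21, 24 to 33 and 36 to 45 h). P-values were adjusted by Benjamini-Hochberg over all probes tested, with a threshold of 0.05. The line and curve fits were tested on simulated data with independent errors and straight-line changes. For the steps only the sign of the last one was checked there, so dependence between neighbouring arrays and false calls of steps were not covered.

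The factors, the gene lists and the sets of arrays were chosen with earlier results of these data known. Named were the 9 factors, up to 10 keratins by fitted range, up to 6 genes of each other list by linear change among those past both fits and detected on 8 or more arrays, and the 3 genes most like each factor past the curve fit. Background correction, normalization, the detection filter, the choice of probe, array weights, single arrays, array groups and the spline were varied. Promoters and newer gene names came from RefSeq tables (GRCh38.p14). Probe positions were not used here.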

Additional observations from a re-analysis of the deposited data

How the results depend on the processing

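Alternatives other than trends within single sets of arrays were counted for results on single factors. In 1087 cases the result kept its side of the threshold, 23 gained a call, 27 lost one and 1 called result turned its direction. Turns of direction were counted only where a call was involved. Uncalled results did turn, such as the linear change of TFAP2A, which ran from -1.12 to 0.63. The called result that turned was the linear change of ELF3, -0.45 from 0 to 21 h alone. In a trend within a single set, chosen after seeing the data, it was -1.24 within 0 to 9 h. The number of factors with a linear change upward, 1 in the report, was 3 with median scaling, 0 with the background group as a block (ELF3 +1.94, adjusted p = 0.214), 0 with the sets as a block, 0 from 0 to 21 h alone, 4 from 24 to 45 h alone and 0 within each set of 4 arrays. Downward it was 2, and not 0, without the 9 h and 18 h arrays (KLF4 and SOX9). The step into 12 to 21 h had 1 factor higher with median scaling (TFAP2A, +0.56), 1 lower with array weights (KLF4) and 3 lower without the 9 h and 18 h arrays (ELF3, KLF4 and SOX9). The step into 36 to 45 h had 1 factor higher with no filter on detection (ELF3). With each array left out in turn, the curve called 2 to 4 factors, the line 1 to 1 upward and 0 to 2 downward, the step into 12 to 21 h 0 to 0 higher and 0 to 3 lower, and the step into 36 to 45 h 1 to 3 higher. The causes were not tested. Factor and keratin pairs called from 24 to 45 h numbered 15, against 3 with median scaling and 0 without the 2 arrays farthest from the median of the factor.

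No paired analysis was possible because, with 1 array per time point, the groups share no more than 1 replicate number. The untreated state rests on a single array, whose weight in the weighted fit was 0.104, and small steps of TFAP2C and GATA3 are near the limit of what 4 arrays against 4 can show. Signals near background compress the changes of EHF, GATA3 and ELF5, and of the keratin KRT19. The same holds for the folds of KLF4 from 6 h on, where it lay between 8.29 and 8.57.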
